A study of Homo sapiens with 23 samples.

Results

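The zinc-finger genes of human chromosome 19 were followed in thalamus organoids (ThOs) that differed in c-JUN genotype and in age. A gene was included when its symbol began with ZNF or ZFP followed by a digit and its listed position was on chromosome 19. This gave 151 of the 9497 genes in the tables, of which RefSeq classes 148 as protein-coding, 2 as long non-coding RNA (ZNF8-DT and ZNF667-AS1) and 1 as a transcribed pseudogene (ZNF788P). RefSeq holds 255 protein-coding genes of these names on the chromosome, and 148 of them were listed; the others were not analysed here.

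ThOs were grown from the H1 human embryonic stem cell line by neural differentiation and thalamus induction and profiled by RNA-seq at day 25 and day 30. Libraries labelled WT came from unedited H1 cells, those labelled KO from H1 cells with c-JUN knocked out by CRISPR-Cas9, and those labelled OE from the knockout cells carrying a doxycycline-inducible c-JUN. The c-JUN protein, encoded by JUN, is a DNA-binding component of AP-1 dimers. For OE the added c-JUN is given in the sample titles, while the genotype field reads knockout. All 3 genotypes therefore share the H1 background and the thalamus induction protocol, and OE and KO share the knockout edit. In OE, c-JUN was switched on by doxycycline in the medium after transfection of a plasmid. The sources used here do not say whether WT or KO received doxycycline. Differences of OE from KO or WT thus cannot separate c-JUN from the drug and the plasmid. Each of the 6 groups of genotype and day held 2 libraries, each from 3 pooled organoids, and the labels do not say which knockout clone gave which library. The 9 ATAC-seq and 2 CUT&Tag samples were left aside.

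Most zinc-finger genes of this chromosome encode proteins with a string of C2H2 zinc fingers that bind DNA, and many also carry a KRAB domain. The KRAB domain recruits the co-repressor TRIM28, which brings in the histone methyltransferase SETDB1 and heterochromatin proteins, and many of the bound sites lie in transposable elements. The genes multiplied by tandem duplication, so that neighbours are often close relatives and lie in dense clusters. No protein sequences were used, so which members carry a KRAB domain was not assessed from sequence.

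Values are a normalized expression score in whole numbers, whose depth is unknown and which can be compared between libraries for 1 gene but not between genes. Over all genes each library had the same median of 106 and the same lowest and highest values, 11 and 9910. The members' values ran from 11 to 746, and 121 of 151 had a mean below 106; since gene length is not known to be accounted for, this is not a ranking of expression. The targeted gene went against its label. JUN was 139 and 153 in WT at day 25, 353 and 196 in KO, and 224 and 212 in OE. At day 30 it was 128 and 162 in WT, 222 and 248 in KO, and 362 and 202 in OE, so the 4 libraries labelled KO lay above the 4 labelled WT. The tables do not show which part of the gene the reads came from, and directions below refer to libraries by their labels. Of 10 thalamus markers only LHX9, SLC17A6 and TCF7L2 were listed. Their summed score was 428 to 494 in WT, 427 to 744 in KO and 382 to 1059 in OE at day 25. At day 30 it was 605 to 718 in WT, 323 to 746 in KO and 574 to 1090 in OE. Fewer cells of a type and less RNA per cell cannot be told apart in these bulk libraries.

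The replicates labelled KO stood apart from the others in spread, also for the members. The standard deviation of the log2 difference between replicates over the 151 genes was 0.83 in KO at day 25 and 0.80 at day 30, against 0.34 to 0.46 in WT and OE. In KO, 36 members at day 25 and 37 at day 30 differed by 2-fold or more between replicates, against 1 to 7 in the other groups. For comparisons that involve KO, the values without single KO libraries are given where they move.

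Most members lay lower at day 30 than at day 25 in WT and in OE, each by a small amount. In OE, 122 of 151 members (80.8%) had a log2 change below 0 at day 30, against 49.7% of all genes, with a median log2 change of -0.20 against 0.00. In WT, 102 members (67.5%) were below 0, against 48.3% of all genes, with a median of -0.14 against 0.01. These comparisons share no library, and 86 of 151 members (57.0%) were below 0 in both, against 32.0% of all genes, while 13 members were above 0 in both.

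The direction was shared with zinc-finger genes on other chromosomes but not with the rest of chromosome 19. Of 175 zinc-finger genes elsewhere, 77.1% were lower at day 30 in OE and 60.6% in WT, with medians of -0.16 and -0.08. Of 483 chromosome 19 genes outside the zinc-finger rule, 38.5% were lower in OE and 44.7% in WT, with medians of 0.08 and 0.06. These shares are descriptions, since genes of a list are not independent of each other.

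No member passed the test in either comparison. A call needed a Benjamini-Hochberg adjusted p under 0.05 from limma, taken over all genes, and a change of at least 2-fold on the log2(score + 1) scale; 0.0% of all genes were called in WT and 0.0% in OE. At an unadjusted p under 0.05, 1 member was lower and 1 higher in WT, and 3 were lower and 0 higher in OE, against 2.11% lower and 2.19% higher of all genes in WT and 1.17% and 0.727% in OE. Leaving out each library of these groups in turn kept 69 to 86 members below 0 in both genotypes, with the fewest when WT replicate 1 of day 30 was left out. In WT alone the count ran from 82 to 103 and the median from -0.18 to -0.04.

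**Figure D1:**
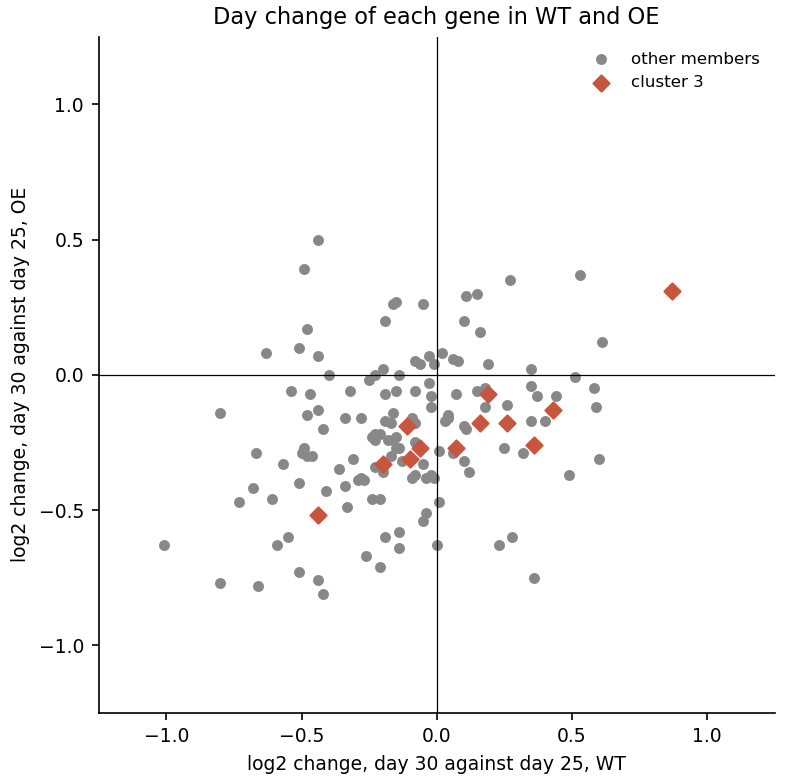
Log2 change from day 25 to day 30 in WT (x axis) and OE (y axis), 1 point for each of the 151 zinc-finger genes, with the 12 genes of cluster 3 (ZNF101 to ZNF43) as diamonds. The area below 0 on both axes holds 86 genes and the area above 0 on both holds 13.

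In KO the day change had no common direction. Of 151 members, 68 were lower and 82 higher at day 30, against 48.2% of all genes lower, and the median was 0.05. That value depended on single libraries: it was -0.15 without KO replicate 2 of day 25 and 0.19 without KO replicate 1 of day 30. The limma test called 0 members and 0.0% of all genes in KO. At an unadjusted p under 0.05, 14 members were higher and 10 lower, against 7.4% and 5.84% of all genes.

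Averaged over the genotypes, 97 members were lower and 54 higher at day 30, with a median of -0.07 against 0.01 for all genes, and 0 members and 0.0% of all genes were called. At an unadjusted p under 0.05, 11 members were lower and 3 higher, against 5.54% and 5.76% of all genes. The member with the lowest unadjusted p for the mean day change over genotypes was ZNF497, a C2H2 zinc-finger gene of the cluster nearest the end of the long arm. Its scores at day 25 were 58 and 48 in WT, 76 and 84 in KO, and 48 and 38 in OE. At day 30 they were 22 and 30 in WT, 24 and 22 in KO, and 18 and 41 in OE. The days did not overlap in WT or KO but did in OE, where 41 at day 30 lay above 38 at day 25. The mean log2 change was -1.13 (SE 0.23), with a limma adjusted p of 0.193, so the change was not called.

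Other members were lower at day 30 in all 3 genotypes without passing the test. ZNF780B was 136 and 112 in WT, 114 and 102 in KO, and 104 and 76 in OE at day 25, and 68 and 89, 43 and 72, and 40 and 66 at day 30. Within each genotype both day 30 scores lay below both day 25 scores, and its mean log2 change was -0.79 (SE 0.201, limma adjusted p 0.227). The corresponding log2 changes were -0.85 for ZNF562, -0.56 for ZNF772 and -0.47 for ZNF431, with limma adjusted p of 0.342, 0.342 and 0.432. ZNF737 and ZNF580 went the other way, with mean log2 changes of 0.89 and 0.86 and limma adjusted p of 0.22 and 0.281. ZNF737 went from 45 and 49 to 78 and 96 in WT, from 26 and 35 to 61 and 126 in KO, and from 78 and 68 to 80 and 102 in OE.

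Across libraries, the member median followed both the day and single KO libraries. For each gene the deviation of its log2 score from its own mean over the 12 libraries was taken. The median of these deviations over members was 0.213 and 0.089 in WT at day 25 and 0.098 and 0.174 in OE at day 25. At day 30 it was 0.005 and 0.047 in WT and -0.128 and -0.066 in OE, so in both genotypes the days did not overlap. In KO it was 0.060 and -0.219 at day 25 and -0.133 and 0.105 at day 30, and the days overlapped. The medians of all genes stayed between -0.014 and 0.031. Since every library had the same median score, a shift of all genes alike could not appear in these values.

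**Figure D2:**
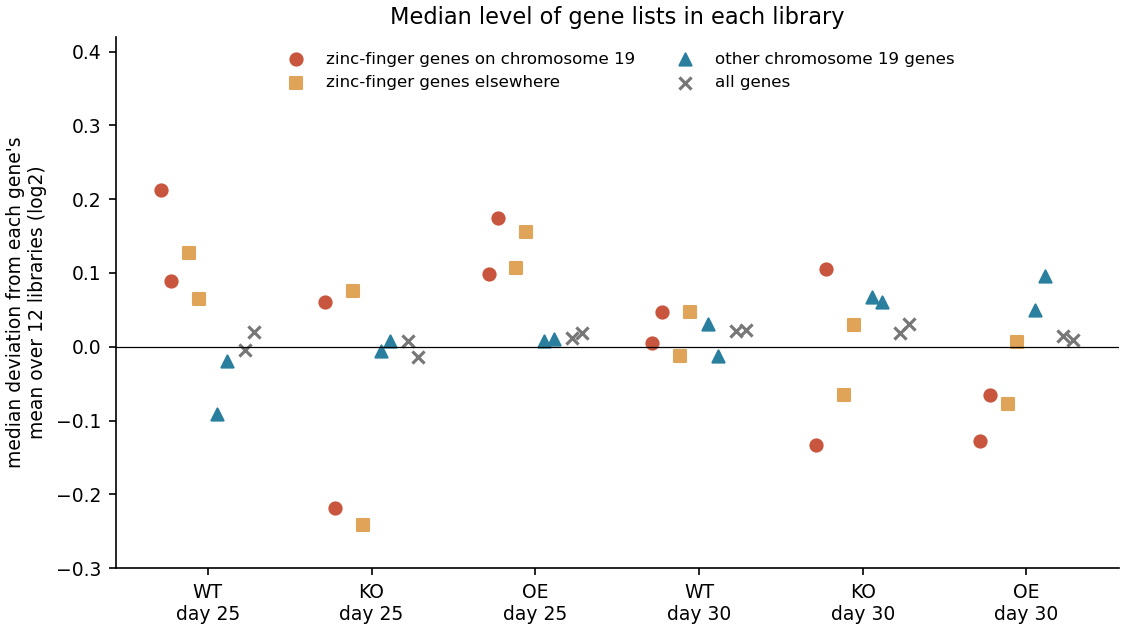
Median deviation of log2 score from each gene's mean over 12 libraries (y axis) for 4 gene lists, by genotype label and day, with 1 symbol per library. The chromosome 19 zinc-finger genes span -0.219 to 0.213, and the symbols for zinc-finger genes elsewhere follow them.

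The comparison of KO with WT asks whether the members depend on the c-JUN label. At day 25, 110 of 151 members (72.8%) had a log2 difference below 0 in KO, against 51.6% of all genes, with a median of -0.20 against -0.02. Zinc-finger genes elsewhere had the same median of -0.20 and other chromosome 19 genes 0.03. The size of this shift depended on single libraries. Without KO replicate 2 of day 25, 83 members were below 0 and the median was -0.06; without WT replicate 1 it was -0.13, and without WT replicate 2 it was -0.32. At day 30, 83 members were below 0, against 50.4% of all genes, with a median of -0.04. This median was 0.10 without KO replicate 1 and -0.15 without KO replicate 2, with 71 and 114 members below 0.

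**Figure D3:**
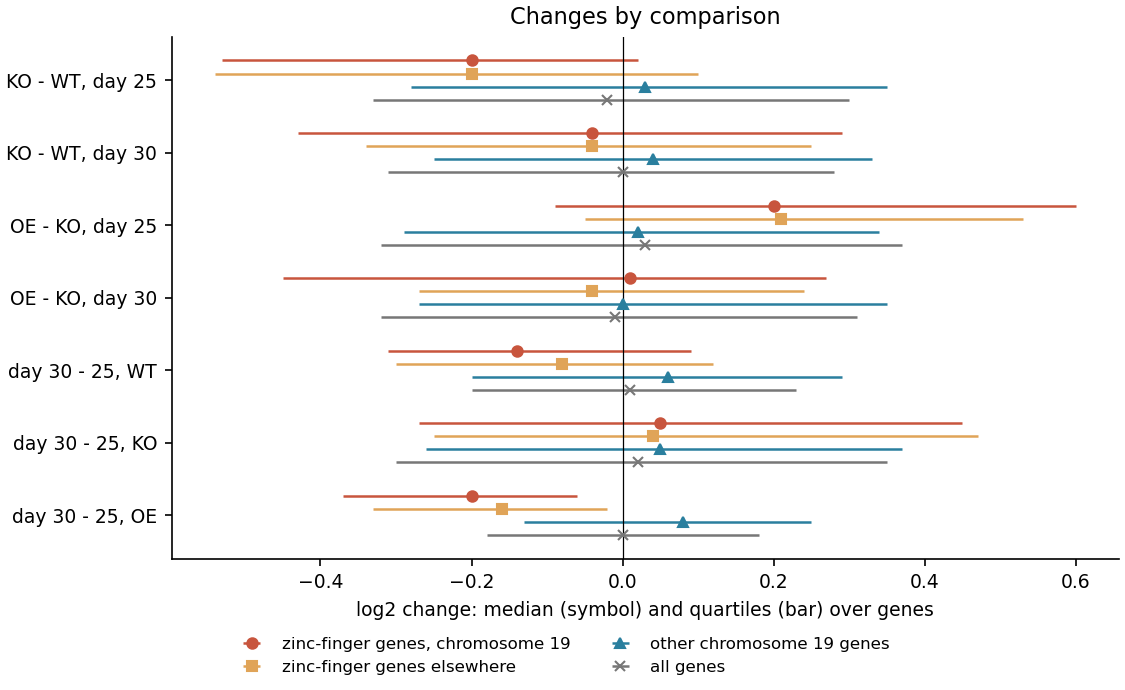
Median log2 change (symbols) with quartiles (bars) over the genes of 4 lists, for 7 comparisons of genotype or day. The chromosome 19 zinc-finger genes have medians of -0.20 for KO against WT at day 25, 0.20 for OE against KO at day 25 and -0.20 for day 30 against day 25 in OE.

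No member was called between KO and WT at day 25 (0.0105% of all genes), at day 30 (0.0% of all genes) or over the mean of days (0.0211% of all genes). At an unadjusted p under 0.05, 13 members were lower and 3 higher at day 25, against 7.39% and 6.03% of all genes. At day 30 these numbers were 10 and 4, against 3.93% and 3.43%. Over the mean of days 19 members were lower and 4 higher, against 8.16% and 7.01%. On both days, which share no library, 64 of 151 members (42.4%) were below 0, against 30.7% of all genes, and this count ran from 54 to 84 with libraries left out. Only ZNF43 and ZNF561 were below all 4 WT scores in all 4 KO libraries, and only ZNF574 and ZNF880 above them; over all genes, 3.14% were lower without overlap and 2.74% higher.

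ZNF574, another C2H2 zinc-finger gene, had scores of 45 and 66 in WT and 104 and 90 in KO at day 25. At day 30 it had 68 and 54 in WT and 78 and 148 in KO. The log2 difference over both days was 0.82 (SE 0.241, limma adjusted p 0.197). ZNF880, in the cluster that ends with ZNF331, had 65, 50, 72 and 76 in the WT libraries and 144, 86, 93 and 114 in the KO libraries, day 25 first. Its log2 difference was 0.71 (SE 0.218, limma adjusted p 0.2).

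OE was compared with KO, which by the labels asks whether the members return when c-JUN is added back. JUN itself had a log2 difference of OE from KO of -0.03 (SE 0.229, limma adjusted p 0.949) over the mean of days. Its RNA score thus did not separate OE from KO, and in these libraries the 2 names rest on the labels. For the cell lines, the paper reports western blots with c-JUN protein absent in KO and induced by doxycycline in OE. By RT-qPCR it also reports no c-JUN mRNA in KO during neural progenitor and cerebral organoid induction. In KO ThOs at day 25 it reports less accessible chromatin at c-JUN. The JUN scores here, higher in KO than in WT, go against that RNA result, though the cultures differ. At day 25, 70.9% of members were higher in OE than in KO, against 52.3% of all genes, with a median log2 difference of 0.20. It was 0.06 without KO replicate 2. At day 30 the median was 0.01. No member was called at day 25 (0.274% of all genes) or at day 30 (0.0842%). At an unadjusted p under 0.05, 20 members were higher and 3 lower at day 25, against 9.31% and 8.5% of all genes, and 6 were higher and 0 lower at day 30, against 5.9% and 5.01%. These comparisons use the same KO libraries as those with WT, so the opposite signs are not independent of each other. Against WT, OE had a median of -0.06 over the mean of days, with 92 members lower and 59 higher, against 49.7% of all genes lower, and 0 members were called (0.158% of all genes); at an unadjusted p under 0.05, 2 members were lower and 1 higher, against 4.69% and 3.53% of all genes. Without overlap between libraries, 3 members were lower and 1 higher in OE than in WT, against 4.34% and 4.13% of all genes.

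ZNF91 was the only member called in any of the 12 comparisons. This KRAB zinc-finger gene, known in primates for repressing SVA retrotransposons, lies on the minus strand at chr19:23304991-23395471 (GRCh38). Its scores at day 25 were 268 and 378 in WT, 285 and 154 in KO, and 479 and 746 in OE. At day 30 they were 508 and 464 in WT, 430 and 239 in KO, and 597 and 708 in OE.

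All 4 OE scores of ZNF91 exceeded all 4 KO scores, while WT overlapped KO. Over the mean of days the log2 difference of OE from KO was 1.26 (SE 0.248), with a limma adjusted p of 0.0283; 2.22% of all genes were called in this comparison, 1.05% higher and 1.17% lower. The call was kept in 10 of 19 alternative fits, with log2 differences of 0.83 to 1.48 and adjusted p of 0.00371 to 0.133. It was lost when either OE library of day 25, OE replicate 2 of day 30, or either or both KO replicate 2 libraries were left out. It was also lost with only the libraries compared, with library weights and with no intensity trend (adjusted p 0.0915, 0.0602 and 0.0513). The log2 difference of OE from WT was 0.66 (SE 0.248), with a limma adjusted p of 0.489.

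ZNF43 and ZNF738, both of cluster 3, had the next largest log2 differences of OE from KO. ZNF43, a KRAB zinc-finger gene, had 146 and 154 in WT, 139 and 61 in KO, and 172 and 184 in OE at day 25. At day 30 it had 164 and 178 in WT, 124 and 56 in KO, and 165 and 175 in OE. Replicate 2 of KO was far below replicate 1 on both days. The log2 difference was 0.98 (SE 0.285, limma adjusted p 0.0835) for OE against KO and -0.86 (SE 0.285, limma adjusted p 0.221) for KO against WT. Over the alternatives these ran from 0.40 to 1.27 and from -1.15 to -0.28, with the values nearest 0 when both KO replicate 2 libraries were left out. ZNF43 passed the test in OE against KO without KO replicate 1 of day 25 (limma adjusted p 0.0312) or of day 30 (0.00808), and in KO against WT without the latter (0.0201).

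ZNF738 had 56 and 55 in WT, 30 and 42 in KO, and 72 and 104 in OE at day 25. At day 30 it had 47 and 72, 51 and 27, and 58 and 88, so that WT and KO overlapped on that day. The log2 difference of OE from KO was 1.09 (SE 0.281, limma adjusted p 0.0598). Over the mean of days, 15 members were higher and 4 lower at an unadjusted p under 0.05, against 11.5% and 10.7% of all genes. In all, 5 members were higher in every OE library than in every KO library and 0 were lower, against 5.17% higher and 4.51% lower of all genes. ZNF585B was the only member lower in OE than in WT at an unadjusted p under 0.05 with no overlap between libraries. It had 58, 58, 48 and 35 in WT and 24, 18, 28 and 27 in OE, with a log2 difference of -1.0 (SE 0.325, limma adjusted p 0.397).

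**Figure D4:**
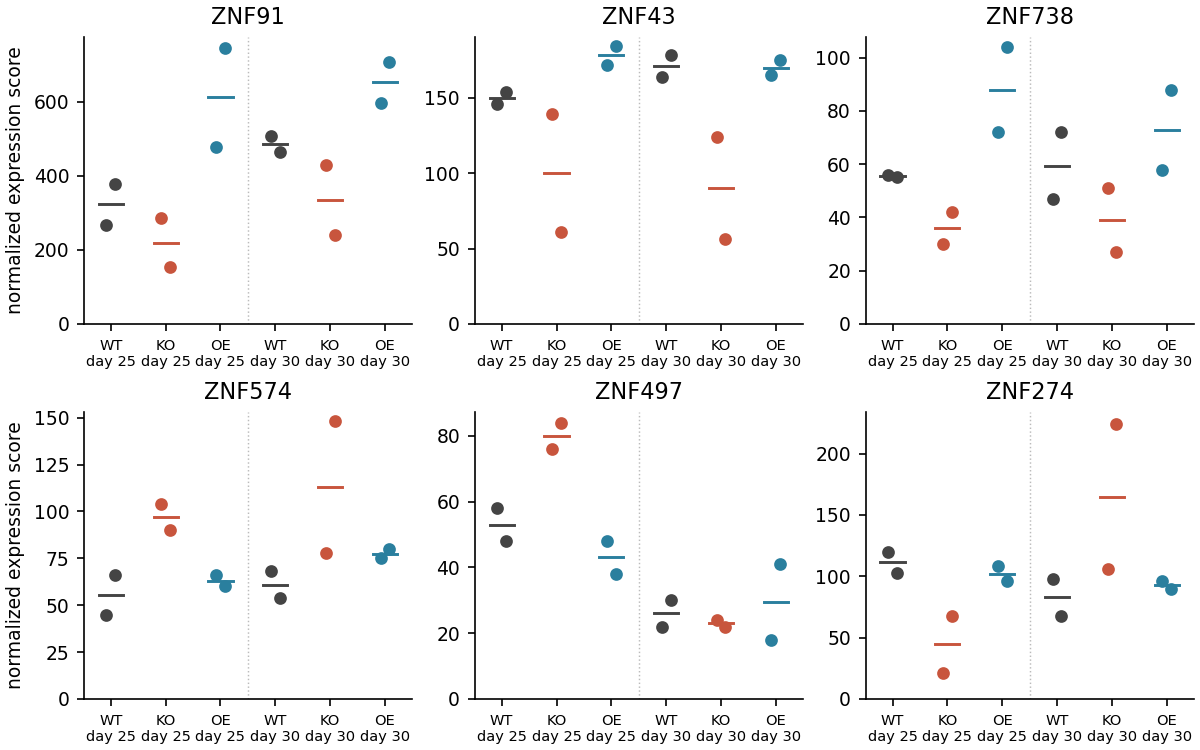
Normalized expression score (y axis, from 0) of 6 members in each library, by genotype label and day, with the mean of 2 replicates as a bar. ZNF91 in OE lies above KO on both days, and ZNF274 in KO runs from 21 and 68 at day 25 to 106 and 224 at day 30.

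ZNF91 and ZNF43 are close relatives, and the sequence before their starts shows it. RefSeq promoter windows of 300 bases (250 before to 50 after the start, GRCh38.p14) were found for 135 of the 151 members, in 174 windows since some genes have several starts. The ZNF91 and ZNF43 windows were identical at 243 of 308 aligned columns (78.9%). Below are the 110 bases before each start, 5′ to 3′, at chr19:23395472-23395581 and chr19:21836183-21836292, both on the minus strand. The ZNF91 start is the outer end of the gene. That of ZNF43, its only window, lies inside the gene's span (chr19:21804946-21852125) and not at its outer end. Capitals mark the longest run that both share, 26 bases long.
ZNF91: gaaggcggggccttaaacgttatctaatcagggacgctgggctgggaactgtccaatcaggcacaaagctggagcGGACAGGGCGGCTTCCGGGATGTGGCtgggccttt
ZNF43: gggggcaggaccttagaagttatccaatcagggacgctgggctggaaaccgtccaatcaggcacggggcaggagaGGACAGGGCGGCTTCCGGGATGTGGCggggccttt

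The shared run holds CTTCCGG, a string of letters that ETS-family factors recognise. Only the exact string was searched, as CCGGAAG or its reverse complement CTTCCGG. It was in 69 of 174 member windows (39.7%), against 10.3% of all 35116 windows and 26.5% of windows of zinc-finger genes elsewhere. The share of this exact string differed between clusters. It was in 18 of 25 members with a window in cluster 7, 25 of 42 in cluster 8, and 0 of 6 and 0 of 10 in clusters 1 and 2. Shorter or altered forms were not counted. The cluster 1 windows of ZNF121, ZNF266, ZNF561 and ZNF562 hold GCGGAAG, which differs from CCGGAAG only in its first letter. The AP-1 site TGANTCA, to which JUN-containing dimers bind, was in 6.9% of member windows and 7.71% of all windows. These matches are descriptions of letters and not of binding.

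When a gap of more than 1 Mb between gene starts was taken to end a run, 139 members fell into 8 runs of at least 5 members. The other 12 lay outside these runs (called isolated), among them ZNF91. Only listed members were used, and unlisted zinc-finger genes may lie in the gaps. Isolated, also for ZNF91, therefore does not mean outside a cluster of the genome. Cluster 1 held 7 members (ZNF317 to ZNF562), cluster 2 held 11 (ZNF627 to ZNF791), cluster 3 held 12 (ZNF101 to ZNF43) and cluster 4 held 5 (ZNF302 to ZNF792). Cluster 5 held 20 (ZNF146 to ZNF607), cluster 6 held 11 (ZNF576 to ZNF180), cluster 7 held 29 (ZNF175 to ZNF331) and cluster 8 held 44 (ZNF579 to ZNF446).

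Members of a cluster moved together only weakly. Over the 12 libraries the median pairwise Pearson correlation was 0.10 among members, 0.08 among zinc-finger genes elsewhere, 0.01 among other chromosome 19 genes and 0.00 among all pairs. Within a cluster it was 0.14, and between clusters 0.10. Clusters 1, 2, 3 and 7 had medians of 0.26, 0.23, 0.25 and 0.22, and clusters 5 and 8 had 0.05 and 0.09. All of these pairs share the same 12 libraries, and the correlations are descriptions. With group means removed, which leaves only differences between replicates, the member median was 0.07. Clusters 1, 2, 3 and 7 then had 0.09, 0.17, 0.05 and 0.23, and clusters 4, 5, 6 and 8 had 0.04, 0.01, 0.21 and 0.02.

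The KO difference was also described by cluster, with no test between clusters. Over the mean of days, all 11 members of cluster 2 were below WT, with a median log2 difference of -0.23, as were 6 of 7 members of cluster 1 (-0.33), 10 of 12 of cluster 3 (-0.28) and 16 of 20 of cluster 5 (-0.19). Cluster 4 had 4 of 5 members above WT (0.38), and cluster 6 had 8 of 11 above (0.11). With KO libraries left out, singly or both replicate 2 libraries, the median stayed below 0 in clusters 1 (-0.41 to -0.05), 2 (-0.35 to -0.19), 3 (-0.40 to -0.03), 5 (-0.28 to -0.07) and 8 (-0.19 to -0.07). It changed sign in cluster 4 (-0.26 to 0.53), cluster 6 (-0.12 to 0.30) and cluster 7 (-0.14 to 0.15). In KO replicate 2 of day 25 the median deviation was -0.68 in cluster 3 and 0.42 in cluster 4. In KO replicate 2 of day 30 it was 0.80 in cluster 4, 0.45 in cluster 6 and 0.39 in cluster 7, against -0.11, -0.21 and -0.09 in the other KO library of that day. The 2 KO libraries of one day thus disagreed in sign in these 3 clusters at day 30. Cluster 8 did not move as 1 unit. When a gap of 0.5 Mb ended a run, it split into 2 runs of opposite sign over the mean of days. ZNF579 to ZNF71 had a median of 0.13 with 8 of 12 above WT. ZNF264 to ZNF446 had -0.29 with 24 of 32 below. Cluster 3 then kept 6 members (ZNF431 to ZNF43), with a median of -0.49.

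The lower level at day 30 in OE was spread over the clusters. It was seen in 11 of 11 members of cluster 2, 11 of 12 of cluster 3, 26 of 29 of cluster 7 and 33 of 44 of cluster 8. With the 0.5 Mb gap, cluster 8 split here too. Lower were 5 of 12 members from ZNF579 to ZNF71 and 28 of 32 from ZNF264 to ZNF446. In WT the same direction was seen in 8 of 11 members of cluster 2, 20 of 29 of cluster 7 and 35 of 44 of cluster 8. It was seen in only 5 of 12 of cluster 3 (median 0.11), 5 of 11 of cluster 6 (0.01) and 5 of the 12 isolated genes (0.09). Of the 86 members that were lower at day 30 in both genotypes, 30 lay in cluster 8, the largest with 44 members. Cluster 5 had 14 of 20 such members and cluster 2 had 8 of 11.

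**Figure D5:**
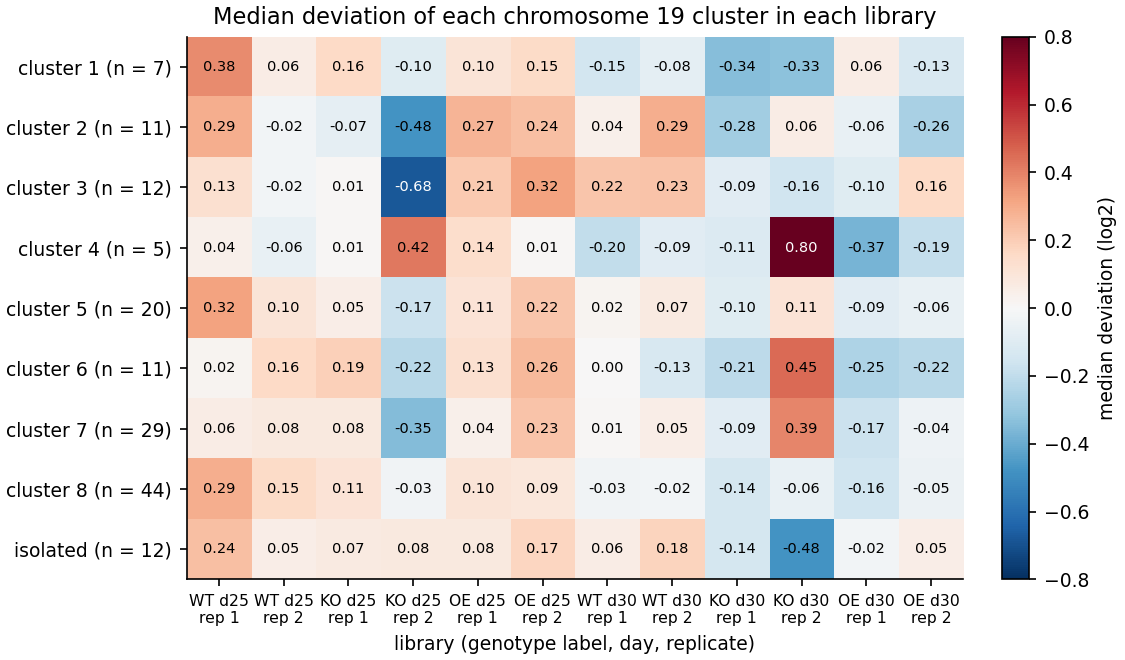
Median deviation of log2 score from each gene's mean over 12 libraries (colour and printed value) for the 8 clusters and the isolated genes (rows) in each library (columns). The most extreme cells, -0.68 and 0.80, both lie in KO replicate 2 libraries.

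Cluster 1 shared a promoter element that was found in 1 member each of clusters 5 and 8 and in no member of the other clusters. The cyclic AMP response element TGACGTCA, a palindrome bound by ATF and CREB factors and by JUN-ATF dimers, was in the windows of 5 of the 6 cluster 1 members that had one. In all, 7 members held it, in 4.6% of member windows, against 1.85% of all windows and 3.34% of windows of zinc-finger genes elsewhere. The 5 copies are shown with 20 bases on each side, 5′ to 3′ on the minus strand (GRCh38.p14), with the element in capitals. They lie at chr19:9435563-9435610 (ZNF266), chr19:9538639-9538686 (ZNF426), chr19:9584527-9584574 (ZNF121), chr19:9621228-9621275 (ZNF561) and chr19:9675080-9675127 (ZNF562).
ZNF266: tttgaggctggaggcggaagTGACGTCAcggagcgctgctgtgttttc
ZNF426: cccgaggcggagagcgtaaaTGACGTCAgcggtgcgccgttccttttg
ZNF121: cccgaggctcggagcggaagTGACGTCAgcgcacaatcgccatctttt
ZNF561: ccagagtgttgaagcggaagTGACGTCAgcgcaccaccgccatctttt
ZNF562: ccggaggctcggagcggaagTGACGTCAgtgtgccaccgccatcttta

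In 4 of these 5 windows the letters GCGGAAG stood directly before the element. Apart from their first letter they match the ETS string CCGGAAG, whose counts leave them out. That combination, on either strand, was in 11 of all 35116 windows (0.0313%), which belong to 10 genes. The copies lie in tandem relatives and are not independent of each other.

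The 5 genes with the element had log2 differences of KO from WT over the mean of days of -0.65 (ZNF426), -0.44 (ZNF561), -0.35 (ZNF562), -0.33 (ZNF266) and -0.05 (ZNF121). None was called, with limma adjusted p of 0.2 to 0.925. ZNF317, the cluster 1 member whose window did not hold the element but held the AP-1 letters, had 0.09. ZNF559 had no window and was not searched. ZNF561, one of the 2 members lower in KO without overlap, had 136, 112, 117 and 142 in WT and 102, 110, 94 and 71 in KO, day 25 first. ZNF426, named here after its values were seen, had 168 and 203 in WT and 95 and 108 in KO at day 25, and 110 and 132 against 110 and 71 at day 30. OE had 167 and 142 at day 25 and 128 and 98 at day 30. KO lay below WT and OE at day 25, and at day 30 the groups met or overlapped.

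ZNF274, which binds within zinc-finger genes themselves and recruits SETDB1 there, had the largest difference of KO effect between the days among the members. Its scores at day 25 were 120 and 103 in WT, 21 and 68 in KO, and 108 and 96 in OE. At day 30 they were 98 and 68 in WT, 106 and 224 in KO, and 96 and 90 in OE. KO lay below WT at day 25 and above it at day 30, with log2 differences of -1.53 (SE 0.49) and 0.91 (SE 0.49). The difference between the days was 2.43 (SE 0.693), with a limma adjusted p of 0.802, and 0 members were called for it, against 0.0% of all genes; at an unadjusted p under 0.05, 8 members were higher and 2 lower, against 3.17% and 2.46% of all genes.

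Other members had been chosen for their known roles. ZNF331, an imprinted KRAB zinc-finger gene, had 70 and 68 in WT, 48 and 18 in KO, and 64 and 52 in OE at day 25, and 48 and 43, 67 and 60, and 36 and 38 at day 30. As for ZNF274, both KO scores lay below both WT scores at day 25 and above them at day 30, with log2 differences of -1.20 (SE 0.403) and 0.47 (SE 0.403). Their difference was 1.67 (SE 0.569, limma adjusted p 0.802). ZNF536, a zinc-finger gene of neurons without a KRAB domain, had a log2 difference of KO from WT of -0.39 (SE 0.286, limma adjusted p 0.517). ZNF568 had -0.06 (SE 0.296, limma adjusted p 0.846). Of the ZFP-named members on this list, ZFP30 had 146 and 139 in WT, 68 and 72 in KO and 130 and 150 in OE at day 25, so KO lay apart on that day. The limma adjusted p for KO against WT was 0.184 (log2 difference -1.02, SE 0.256). By day 30 the scores were 134 and 118, 100 and 150, and 112 and 124, and the groups overlapped. ZFP14 and ZFP82 had log2 differences of KO from WT over the mean of days of -0.58 (SE 0.217, limma adjusted p 0.255) and 0.06 (SE 0.364, limma adjusted p 0.955). Over the 12 libraries ZNF304 varied least, with a standard deviation of 0.10 on the log2 scale, and ZNF8-DT most, with 0.81; the median over members was 0.40, against 0.37 over all genes.

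The partners of the KRAB domain were examined as a list of 24 co-repressor genes, of which 23 were listed. TRIM28, the scaffold itself, had 1082 and 1082 in WT and 1217 and 1084 in KO at day 25, and 896 and 946 against 971 and 1084 at day 30. Its log2 difference was 0.12 (SE 0.108, limma adjusted p 0.596), and that of SETDB1 was 0.20 (SE 0.161, limma adjusted p 0.557). Over the list, 17 of 23 genes were below WT in KO over the mean of days, with a median of -0.17, against 52.2% of all genes below 0. The test called 0 of them, against 0.0211% of all genes. At an unadjusted p under 0.05, 3 were lower and 0 higher, against 8.16% and 7.01% of all genes.

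HDAC2, a histone deacetylase of the repressor complexes, was the only gene of the list that was called. It had 496 and 619 in WT, 342 and 272 in KO, and 619 and 689 in OE at day 25, so that KO lay below both. OE exceeded KO by 1.10 (SE 0.181) on the log2 scale, with a limma adjusted p of 0.0439; 0.274% of all genes were called there. This call was kept in 7 of 15 alternative fits and lost without KO replicate 2, without both KO replicate 2 libraries, or without either OE library of that day. It was also lost with the replicate block, with only the libraries compared, with library weights and with no intensity trend. Adjusted p in these fits ran from 0.0169 to 0.287; without both KO replicate 2 libraries it was the 0.0169, and the log2 difference of 0.93 was under 2-fold. Over the mean of days OE exceeded KO by 0.75 for HDAC2 (SE 0.128, limma adjusted p 0.0169) and, for ATF7IP, a partner of SETDB1, by 0.58 (SE 0.121, limma adjusted p 0.0333), both under 2-fold.

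Marker lists of other kinds also differed between these libraries. The summed score of 6 of 6 markers (CCNB1, CDK1, MCM2, MKI67, PCNA and TOP2A) was 2138 to 2328 in WT, 1297 to 1458 in KO and 2530 to 2700 in OE at day 25. At day 30 it was 1635 to 1969, 1310 to 1825 and 2455 to 2721. The median log2 change of these proliferation markers with day was -0.26 in WT, with 6 lower and 0 higher, and 0.06 in OE, with 2 lower and 4 higher. In both, 0 were called, against 0.0% of all genes. Neuron markers (9 of 10 listed) summed to 6710 to 7803 in WT at day 25 and 8919 to 9119 at day 30, and to 8390 to 8800 and 7520 to 10561 in OE. Neural progenitor markers (5 of 8 listed: HES1, NES, PAX6, SOX2 and VIM) summed to 5688 to 12228 in WT, 3465 to 5352 in KO and 5562 to 6094 in OE at day 25, and to 5459 to 5765, 5156 to 5785 and 5525 to 5688 at day 30. Of these 5 genes, 5 were lower in KO than in WT at day 25 (median log2 difference -0.94) and 5 higher in OE than in KO (1.14). In each comparison 0 were called, against 0.0105% and 0.274% of all genes. At an unadjusted p under 0.05, 3 were lower in KO than in WT, against 7.39% of all genes. The same number were higher in OE than in KO, against 9.31%. Choroid plexus markers (7 of 8 listed) summed to 2224 to 3043 in WT at day 25 and 3058 to 5102 at day 30, and to 1926 to 4492 and 4003 to 4402 in OE. Their median log2 change with day was 0.56 in WT and 0.65 in OE, with 6 of 7 higher in each and 0 called, against 0.0% of all genes. Between OE and KO, markers were called. Over the mean of days, 3 of 7 choroid plexus markers were called lower in OE, against 1.17% of all genes. In that comparison 1 proliferation marker and 1 neural progenitor marker were called higher, against 1.05%. At day 25, 1 neuron marker and 1 choroid plexus marker were called lower, and at day 30, 1 choroid plexus marker. The part of these markers in the zinc-finger shifts was not tested.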

How the data were processed

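RNA-seq libraries (dUTP-stranded total RNA, paired-end) of 12 ThO samples were analysed. The authors deposited 1 table per library holding a normalized expression score per gene, rounded to whole numbers; sums were 1788282 to 1798596 and the read depth is unknown. The labels' processing notes list bcl2fastq, RSEM, Bowtie2 and hg19, whereas all 151 member positions overlapped RefSeq GRCh38.p14. Strand use in counting is not given in the sources used here, so 30 members that overlap another member, and near-identical paralogs, are uncertain.

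Scores were analysed as log2(score + 1) with limma 3.58.1 in R 4.3.3: 1 mean per group over 12 libraries (6 residual degrees of freedom), empirical Bayes with intensity trend, and Benjamini-Hochberg adjustment over 9497 genes. P-values are two-sided. The filter (at least 1 in 2 libraries) removed 0 genes. The study mentions separate batches for its experiments in general, but no source used here ties the 2 libraries of a group to separate cultures, so p-values measure the spread between these libraries, which may be technical. The steps were tested on simulated data. Promoters were read with Python 3.11.15 and Biopython 1.88.

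Named members were those called, the 5 largest changes per direction among members with an unadjusted p under 0.05 and non-overlapping libraries (day changes: the same direction in all 3 genotypes), and a list chosen for known roles, of which ZNF93, ZFP36 and ZFP28 were not analysed here. Members and lists were chosen with earlier results of these data known. Alternatives were other pseudocounts (0.1 and 5), filters, normalizations, a replicate block, library weights and left-out libraries. Leaving out both KO replicate 2 libraries was added after seeing the data.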

Additional observations from a re-analysis of the deposited data

How the results depend on the processing

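The shift of members from day 25 to day 30 in OE kept its direction under every alternative run, with medians of -0.26 to -0.18 when a library was left out and 106 to 125 members lower. Comparisons with KO did not hold as well. With each library left out in turn, the member median ran from -0.32 to -0.06 for KO against WT at day 25, -0.15 to 0.10 at day 30, 0.06 to 0.35 for OE against KO at day 25, -0.20 to 0.04 at day 30, -0.15 to 0.19 for the day change in KO, and 0.00 to 0.30 for the change of the KO-WT difference with day. The members called ran from 0 to 2, 0 to 15, 0 to 6, 0 to 12, 0 to 17 and 0 to 2 in the same order. Over the mean of days they ran from 0 to 3 for KO against WT and 0 to 9 for OE against KO, and from 0 to 1 for the mean day change. All genes called ran alongside: 11.4%, 15.2% and 9.88% beside the counts of 15, 12 and 17 (9.93%, 7.95% and 11.3% of members), 10.2% beside the 9 and 5.66% beside the 3. The 2 and 6 members called at day 25 (1.32% and 3.97%) came without KO replicate 1 of that day, beside 0.358% and 3.05% of all genes. The highest counts came without KO replicate 1 of day 30, when replicate 2 alone stood for its group and was assumed to vary like the other groups. Without both KO replicate 2 libraries the medians were -0.06 for KO against WT and 0.06 for OE against KO at day 25, -0.13 for the day change in KO and -0.08 for the difference between days. The members called were then 10, 10 and 2, and over the mean of days 1 for KO against WT, 4 for OE against KO and 2 for day. Of all genes, 4.44%, 7.51% and 1.21%, and then 0.569%, 2.3% and 0.79%, were called in these fits.

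An unadjusted p in place of the adjusted p called 9, 4 and 1 members for KO against WT (day 25, day 30, mean), 8, 2 and 2 for OE against KO, 1 for day in WT, 8 in KO and 1 in the mean, and 8 for the difference between days. The same rule passed 5.31%, 2.94%, 2.08%, 8.57%, 5.38%, 4.98%, 1.17%, 5.42%, 0.411% and 3.99% of all genes in this order, against 5.96%, 2.65%, 0.662%, 5.3%, 1.32%, 1.32%, 0.662%, 5.3%, 0.662% and 5.3% of members. For OE against KO over the mean of days, 0 members were called with only the libraries compared, with library weights or with no intensity trend; the cause was not tested. Same-numbered replicates correlated at -0.214 to 0.262 over 15 pairs of groups, with 1 above 0.1, so the numbers were not treated as pairs; with the replicate block 1 member was called there, ZNF91 (adjusted p 0.0415). At 2 libraries per group the median SE of a member was 0.375 on the log2 scale within a day, so changes of the size of the member medians cannot be resolved gene by gene.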
